A study of Trichoderma reesei with 12 samples.

Results

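In mycelium of Trichoderma reesei lacking sor4, 75 genes of the 10879 rows of a deposited count table differed at least 4-fold between replicate libraries grown alike in darkness. They were chosen on CPM values (a count divided by the total of its library and multiplied by 1000000). A gene was taken if its mean over the 4 sor4 dark libraries was at least 10 CPM and the highest of the 4 was at least 4 times the lowest, a count of 0 included. The ratio of the light mean to the dark mean also had to lie above 0.25 and below 4 in at least one strain, which it did in both strains for 49 genes, in ku80 alone for 18 and in sor4 alone for 8. The values of the sor4 dark libraries therefore chose these genes, and their spread there is a description with no test. No label says whether libraries of one group came from separate cultures, so they are called libraries here, and p-values measure the spread between libraries, which may be technical.

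The series compares the deletion strain QM6aΔku80Δsor4 (called sor4) with its parent QM6aΔku80 (called ku80), in light and in darkness. Both strains carry the ku80 deletion, which is used to ease gene targeting, and both were grown for 96 h at 28 °C on cellulose in a minimal medium. RNA sequencing covered 4 sor4 and 2 ku80 libraries in light and 4 sor4 and 2 ku80 libraries in darkness. The titles and treatment labels separate light from darkness, while the cultivation text of every sample speaks of darkness; the titles were followed. Whether the sor4 strain is 1 transformant or several is not stated in the labels.

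T. reesei is a filamentous fungus that secretes cellulases when it grows on cellulose. It senses blue light through photoreceptor proteins, and light is known to change both its metabolism and its development, including the formation of conidia. The SOR cluster holds the genes for sorbicillinoids, yellow polyketide pigments of this fungus, and sor4 encodes a transporter of that cluster, per the labels. Apart from 3 rows named for the mat1-1 locus, the table gives identifiers with no names beside them. None of the identifiers was found among the 9116 genes of the reference table. No role is therefore given to any identifier below, and the deleted gene was not checked by name. The 7 identifiers from TrE0659C to TrE0665C were left out by the rule. Of those 7, 5 met the conditions on level and spread and 0 met the light to dark condition, so leaving them out removed no gene.

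Library totals ran from 7844524 to 12027855 counts, and within sor4 in darkness from 8908266 in replicate 2 to 12027855 in replicate 4, with 9093574 in replicate 1. The scaling factors computed over all genes by TMM (a trimmed mean of log ratios) lay between 0.958 and 1.03, so they shift no gene by anything near the 4-fold bound. The 75 genes held 0.971% ± 0.140 of all counts in sor4 light libraries (SD, n = 4) and 0.668% ± 0.269 in ku80 light libraries (SD, n = 2). In darkness they held 1.29% ± 0.572 in sor4 (SD, n = 4) and 0.768% ± 0.260 in ku80 (SD, n = 2). No counting interval is printed: the libraries carry no stated molecular identifiers, so 1 molecule may give several reads. In bulk RNA, fewer cells of one type and less RNA per cell cannot be told apart.

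One library carried most of the difference. Sor4 dark replicate 1 was the lowest of the 4 for 50 of the 75 genes, against 22.1% of the 6634 rows with a mean of at least 10 CPM in that group, and it was the highest for 8, against 47.3% of those rows. Replicate 3 was the highest for 37 genes (19.2% of the rows) and replicate 2 for 28 (21.7%). Replicates 2 and 3 were the lowest for 10 genes each (26.8% and 29.3% of the rows). Replicate 4 was seldom at either end, with 2 genes highest and 5 lowest, against 11.8% and 21.8% of the rows. The rule itself used these libraries, so nothing is read from these shares beyond which libraries carry the spread. Of the 6634 rows, 162 (2.44%) were at least 4-fold apart among the 4 libraries, and 87 of those 162 were not taken because their light to dark ratio lay outside the bounds in both strains.

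Library by library, 58 of the 75 genes were at least 4-fold apart between sor4 dark replicates 1 and 3, with 47 higher in replicate 3 and 11 higher in replicate 1. Between replicates 1 and 2 there were 43 such genes, 41 of them higher in replicate 2, and between replicates 1 and 4 there were 19, 14 of them higher in replicate 4. Without replicate 1 the numbers were lower, at 18 between replicates 2 and 3, 11 between replicates 2 and 4, and 3 between replicates 3 and 4. With replicate 1 left out altogether, the rule gave 24 genes, of which 21 were among the 75. Leaving out replicate 2, 3 or 4 in its place gave 66, 57 and 74 genes.

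**Figure D1:**
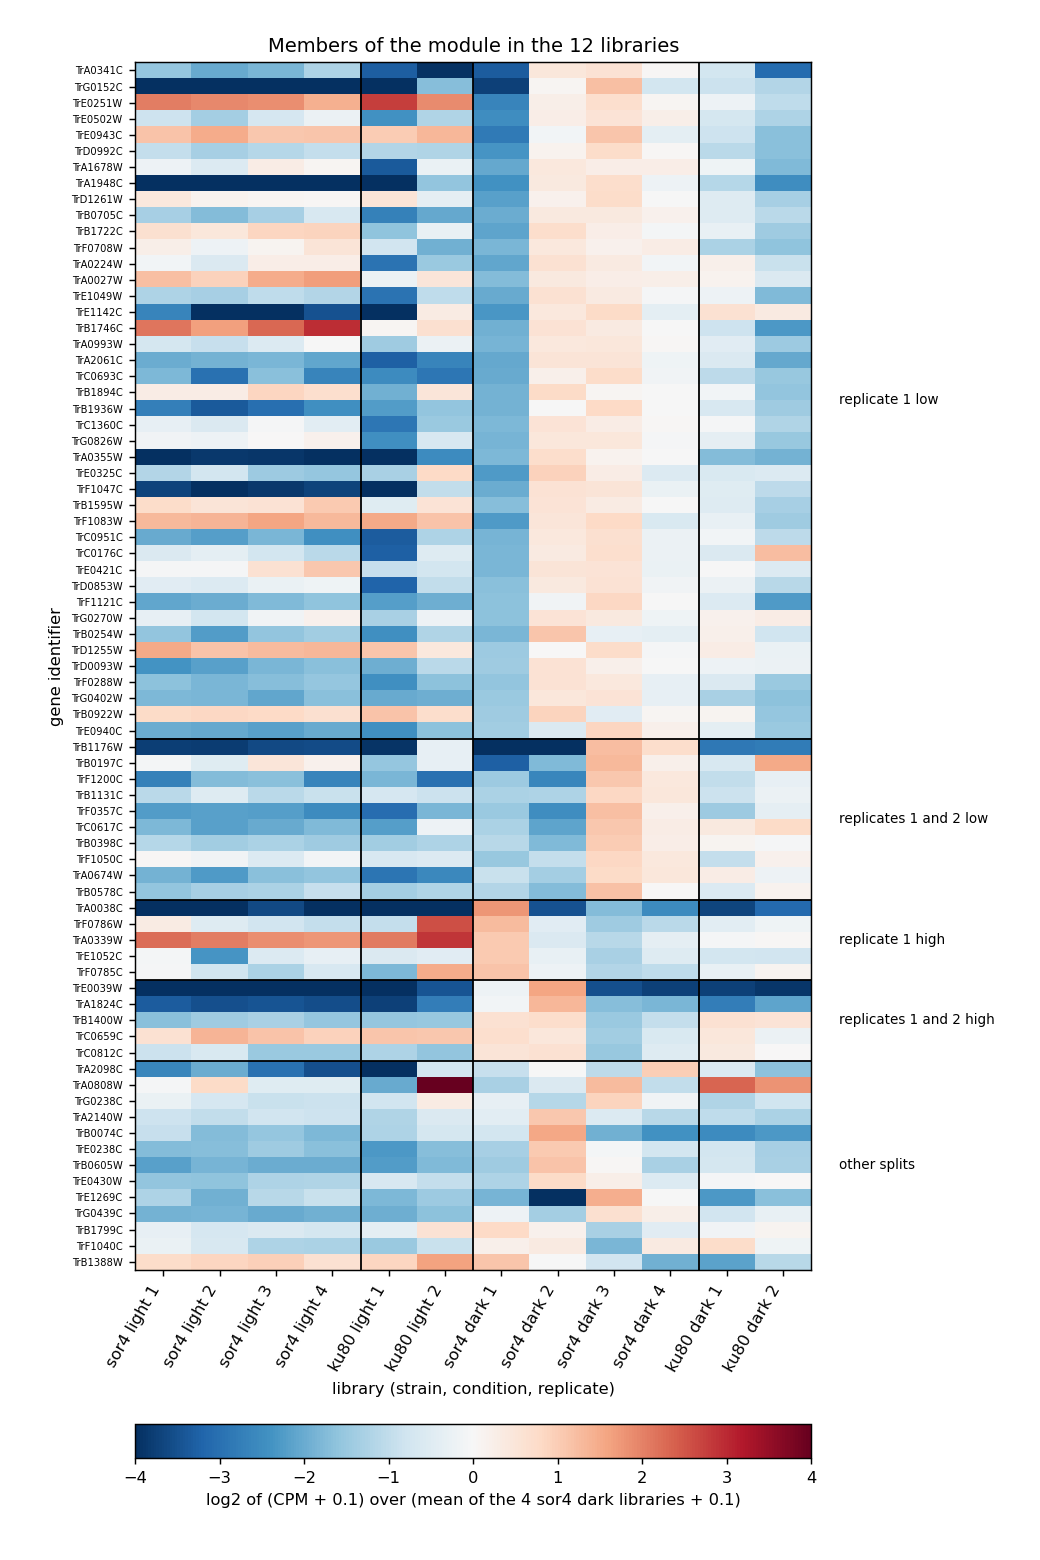
Each row is 1 of the 75 genes and each column 1 of the 12 libraries; colour gives log2 of CPM + 0.1 over the mean of the 4 sor4 dark libraries + 0.1, from blue (lower) to red (higher), with values beyond 4 in either direction drawn at the end of the scale. Black lines separate the groups of libraries and the ways in which the sor4 dark libraries split; in the top 42 rows sor4 dark replicate 1 is the lone library on the low side.

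To describe which libraries stood together, the 4 values of a gene were sorted on the log2 scale of CPM + 0.1 and divided at their widest gap. In 42 of the 75 genes (56.0%) this set replicate 1 alone on the low side. In 10 genes replicates 1 and 2 were low and replicates 3 and 4 high, and in 5 genes it was the reverse, with replicates 1 and 2 high. Replicate 1 alone was high in 5 genes. The remaining 13 genes were spread over 7 other splits, with 1 to 3 genes each. The median gap was 3.29-fold over the genes with counts on both sides, and it reached 4-fold in 17 genes.

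The 42 genes low in replicate 1 alone included most of the abundant ones. Together they made up 0.261% of all counts in sor4 dark replicate 1, and 1.43%, 1.32% and 1.01% in replicates 2, 3 and 4. The median gene of this set stood at 0.268 of its own sor4 dark mean in replicate 1, at 1.36 in replicate 2, at 1.43 in replicate 3 and at 0.972 in replicate 4. The highest value was in replicate 3 for 23 of these genes and in replicate 2 for 19. Highest-to-lowest ratios ran from 4.08 to 32.01, and the gap between replicate 1 and the nearest other library from 1.73-fold to 10.7-fold.

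**Figure D2:**
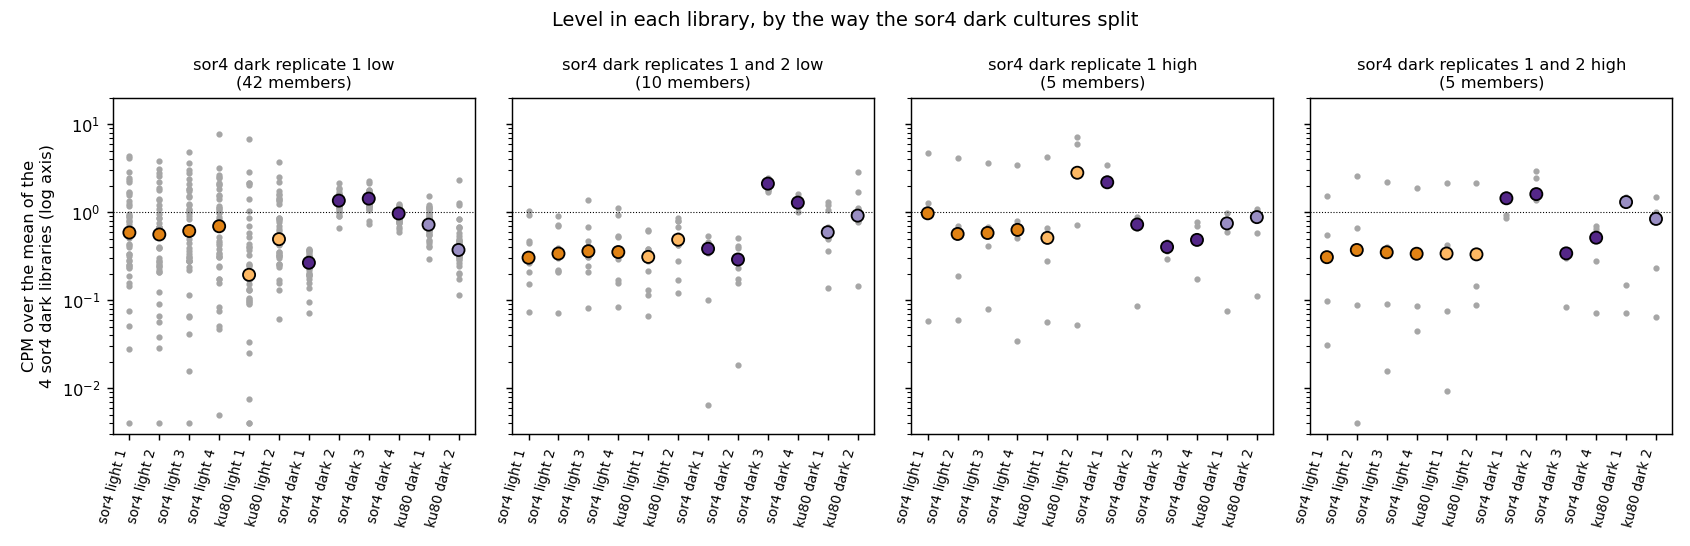
CPM in each of the 12 libraries divided by the gene's mean over the 4 sor4 dark libraries, on a log axis, for the 4 splits with at least 5 genes; grey points are genes, large points their median, and values under 0.004 are drawn at 0.004. In the set of 42 the median is 0.268 in sor4 dark replicate 1 and 0.195 in ku80 light replicate 1, against 0.496 in ku80 light replicate 2.

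The widest gap of this set belonged to TrA0341C, which had 2.97 CPM in sor4 dark replicate 1 and 42.2, 46.4 and 31.8 CPM in replicates 2 to 4, and 18.5 and 3.53 CPM in the ku80 dark libraries. Replicate 1 stood 10.7-fold below the next library, and ku80 dark replicate 2 was about as low. TrG0152C had 1.87 CPM in replicate 1, against 27.5, 59.8 and 15.5 CPM in replicates 2 to 4, and its ku80 dark values were 14.4 and 11.5 CPM. TrE0251W had 10.3 CPM in replicate 1, and 77.6, 104 and 69.4 CPM in replicates 2 to 4, while both ku80 dark libraries, at 56.2 and 32.5 CPM, lay inside that range. TrE0943C, the member of this set with the second widest ratio (15.8), had 7.81 CPM in replicate 1, 52.0 in replicate 2, 123 in replicate 3 and 43.6 in replicate 4, with 32.2 and 17.7 CPM in ku80. In all 4 genes replicate 1 was the low library and replicate 3 the highest, followed by replicates 2 and 4.

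Of the 6 genes with the highest mean CPM, 5 were in this set. TrB0705C had 652 CPM in sor4 dark replicate 1, and 3389, 3404 and 2876 CPM in replicates 2 to 4, against 1788 and 1211 CPM in ku80 dark. TrE1049W had 381 CPM in replicate 1, and 2353, 1988 and 1491 CPM in replicates 2 to 4, against 1336 and 456 CPM in ku80 dark. TrA0027W had 239.9 CPM in replicate 1 and close to 4 times as much in the others, with 1047, 945 and 939 CPM, against 865 and 531 CPM in ku80 dark. In each of these genes ku80 dark replicate 2 was lower than ku80 dark replicate 1 and above sor4 dark replicate 1.

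TrA0224W and TrB1722C, the others of the set among the genes with the highest means, are short. TrA0224W, listed with a length of 447 bases, had 213 CPM in sor4 dark replicate 1, and 1369.8, 1158 and 833 CPM in replicates 2 to 4, against 1029.5 and 484 CPM in ku80 dark. TrB1722C, of 267 bases, had 164 CPM in replicate 1, and 1148, 844 and 672 CPM in replicates 2 to 4, against 577 and 266 CPM in ku80 dark. Per kilobase of listed length, the mean level in sor4 dark was 2648 CPM for TrB1722C, 1998 for TrA0224W, 1498 for TrB0705C and 1403 for TrE1049W.

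The rule did not use gene length, which is given here as a description. Of the 75 genes 10 were under 500 bases, against 8.28% of the 6634 rows, and all 10 were low in sor4 dark replicate 1 alone, while 0 of the other 33 genes were that short. Their ratios between the highest and lowest sor4 dark library were 4.74 to 8.69. Beside TrA0224W and TrB1722C these are TrA1948C, TrA2061C, TrB1746C, TrC0951C, TrC1360C, TrD0853W, TrF0708W and TrF1121C. The bound of 500 bases was chosen after the values were seen. Short rows in general were not low in that library. Of the other 539 rows under 500 bases, 36.7% were lower in sor4 dark replicate 1 than in the mean of replicates 2 to 4. The share was 34.8% of the other 6020 rows of 500 bases or more.

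The 10 genes low in replicates 1 and 2 had a median of 0.386 of their sor4 dark mean in replicate 1 and 0.291 in replicate 2, against 2.12 in replicate 3 and 1.29 in replicate 4. Replicate 3 was the highest library for all 10. TrB1176W had the widest ratio of all 75 genes, with 1.98 and 5.61 CPM in sor4 dark replicates 1 and 2, and 718 and 494 CPM in replicates 3 and 4. In counts these were 18, 50, 7321 and 5939 reads, a ratio of 363 between replicates 3 and 1. The ku80 dark values of TrB1176W, 41.7 and 44.2 CPM, fell between the low and the high pair and close to each other. TrB0197C had 3.08 and 8.98 CPM in replicates 1 and 2, and 75.8 and 35.3 CPM in replicates 3 and 4, and its ku80 dark libraries were themselves 4.48-fold apart, at 19.6 and 87.8 CPM. TrF1200C had 9.46 and 4.15 CPM against 55.7 and 35.2 CPM in the same libraries, and 13.2 and 20.9 CPM in ku80 dark. The other 7 genes of this set had ratios from 4.37 to 13.3.

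**Figure D3:**
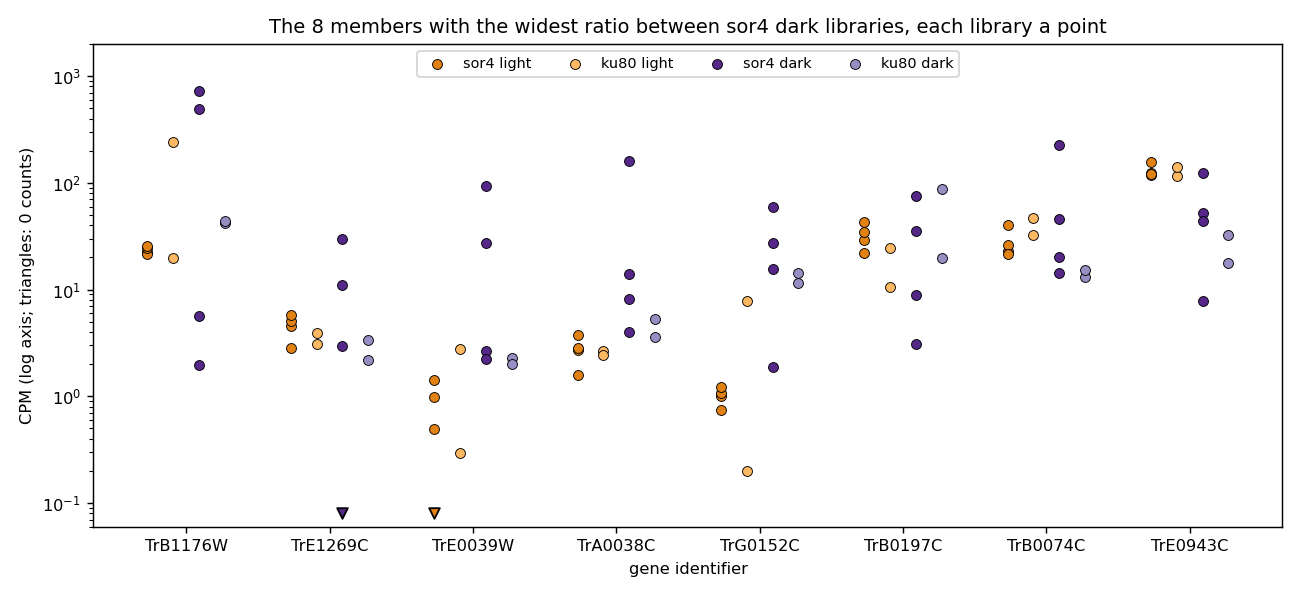
CPM of the 8 genes with the widest ratio between sor4 dark libraries, on a log axis, with 1 point per library and colour for the group; triangles mark 0 counts. The 4 sor4 dark points of TrB1176W reach from 1.98 to 718 CPM, while its ku80 dark points lie at 41.7 and 44.2 CPM and its sor4 light points between 21.8 and 25.7 CPM.

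Replicate 1 alone was high in TrA0038C, TrA0339W, TrE1052C, TrF0785C and TrF0786W. TrA0038C had 161 CPM in sor4 dark replicate 1, and 4.04, 13.9 and 8.15 CPM in replicates 2 to 4, against 3.56 and 5.29 CPM in ku80 dark. Here replicate 1 was the library apart, 11.5-fold above the next, and the other 3 libraries reached down to the ku80 level. TrF0785C and TrF0786W follow each other in the table and moved together, with 22.5 CPM for TrF0785C and 47.0 CPM for TrF0786W in replicate 1. In replicates 2 to 4 TrF0785C had 8.98, 4.51 and 4.99 CPM and TrF0786W 14.03, 7.06 and 9.06 CPM. In ku80 dark they had 8.31 and 11.1 CPM and 14.4 and 17.0 CPM. How reads were assigned to overlapping genes is not given in the sources used here, so reads shared by such neighbours cannot be told apart.

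TrA0339W and TrA0341C, with 1 row between them, split in opposite directions. TrA0339W had 35.3 CPM in sor4 dark replicate 1, and 11.2, 7.85 and 13.2 CPM in replicates 2 to 4, against 16.5 and 17.4 CPM in ku80 dark, while TrA0341C was low in replicate 1. These were the only runs of the 75 genes in table order, allowing 1 row between: 4 genes in 2 runs, so 71 of the 75 stood alone. The identifier letters A to G carried between 5 and 18 of the genes each, the most for B (24.0%, against 19.04% of the 6634 rows) and the fewest for D (6.67%, against 12.8%).

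Replicates 1 and 2 were high together in TrA1824C, TrB1400W, TrC0659C, TrC0812C and TrE0039W. TrE0039W had 27.4 and 93.5 CPM in sor4 dark replicates 1 and 2, and 2.65 and 2.24 CPM in replicates 3 and 4, against 2.28 and 2.03 CPM in ku80 dark, so that the low pair stood at the ku80 level. TrA1824C had 717 and 1933 CPM in replicates 1 and 2, and 236 and 218 CPM in replicates 3 and 4, all 4 above the ku80 dark values of 115 and 180.4 CPM. It was the only 1 of the 75 genes in which every sor4 dark library was higher than both ku80 dark libraries, which held for 7.91% of the rows. For TrB1400W the ku80 values stood with the high pair instead: 48.4 and 51.5 CPM in replicates 1 and 2, and 11.4 and 16.5 CPM in replicates 3 and 4, against 48.3 and 47.2 CPM in ku80 dark.

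Of the remaining 13 genes, TrE1269C had 0 counts in sor4 dark replicate 2, the only count of 0 in that group. Its values were 2.97, 0, 30.02 and 10.97 CPM in replicates 1 to 4, and 2.18 and 3.35 CPM in ku80 dark. Set against a floor of 3 counts in that library, replicate 3 was at least 89.1-fold higher. TrB0074C was high in replicate 2 alone, with 224 CPM there, and 45.7, 20.1 and 14.2 CPM in replicates 1, 3 and 4, against 13.3 and 15.3 CPM in ku80 dark. TrA0808W was high in replicate 3 alone, with 28.6 CPM, against 4.73, 7.86 and 5.90 CPM in the other 3 libraries. It was the only 1 of the 75 genes in which every sor4 dark library was lower than both ku80 dark libraries, which had 59.6 and 41.4 CPM; the same held for 6.26% of the rows. TrA2098C was high in replicate 4 alone, with 43.1 CPM, against 11.4, 21.6 and 10.4 CPM in replicates 1 to 3, and 14.3 and 6.79 CPM in ku80 dark.

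Against the parent in darkness, sor4 levels mostly enclosed the ku80 levels. Both ku80 dark libraries lay inside the sor4 dark range for 54 of the 75 genes, against 45.3% of the 6634 rows; a wide range encloses more values by construction. The sor4 dark mean was higher than the ku80 dark mean in 61 genes and lower in 14, with a median ratio of 1.68. Over the rows it was higher in 57.8%, with a median ratio of 1.02. The sor4 dark mean is one of the values that chose the genes, so nothing is read from this difference. In edgeR's quasi-likelihood test of the 6 dark libraries 0 of the 75 genes passed at an adjusted p under 0.05, where 0.0116% of the 8635 rows tested did. At an unadjusted p under 0.05 there were 4 of the 75 genes (5.70% of the rows), and DESeq2 called 0 of the 75 (0.162% of the rows). The sor4 dark spread that chose these genes enters this test, so nothing is read from the 0. In 14 of the 42 genes low in replicate 1, both ku80 dark libraries stood nearer to the high side of the split, in 3 both stood nearer to the low side, and in 25 there was 1 on each side.

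The spread could be looked at again in libraries that the rule had used only for the light to dark ratio. Between the ku80 dark libraries 2 of the 75 genes were at least 4-fold apart, TrA0341C and TrB0197C, against 0.122% of the 6564 rows with a mean of at least 10 CPM there. At a bound of 2-fold there were 21, against 1.77% of those rows. Between the ku80 light libraries 17 genes were at least 4-fold apart, against 1.16% of 6404 rows, and all 17 were higher in replicate 2 (1.88% of the 6634 rows). At 2-fold, 31 were higher in replicate 2 (5.08%) and 2 in replicate 1 (2.22%). Of the 75 genes 52 had a mean of at least 10 CPM in ku80 light, and 10 of those 52 were at least 4-fold apart. Some genes met the light to dark condition only through a high value in ku80 light replicate 2. Without that library the rule kept 66 of the 75 genes, against 72 without ku80 light replicate 1. The counts and the direction in ku80 light are therefore in part set by the rule.

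Between the 4 sor4 light libraries 3 of the 75 genes were at least 4-fold apart, against 0.156% of 6421 rows, and 0 of the 52 genes with a mean of at least 10 CPM in that group were. The median ratio of highest to lowest sor4 light library was 1.55, against 1.18 over the rows, and 5.71 for the same genes in sor4 darkness, where it was chosen to be wide. The 3 genes were TrE0039W, with 1 count of 0, TrE1052C and TrE1142C, all 3 with sor4 light means under 10 CPM. Without sor4 light replicate 2 only 1 gene was left.

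The direction between the ku80 dark libraries went in part with the split of the sor4 dark libraries. Over the 6634 rows the same differences were also correlated, as given below. The share among rows equally low in sor4 dark replicate 1 was not computed. Of the 42 genes low in sor4 dark replicate 1, 39 were higher in ku80 dark replicate 1 than in replicate 2, against 45.9% of the 6634 rows. At least 2-fold apart in that direction were 15 of the 42 (1.25% of the rows), and 1 was at least 2-fold apart in the other (0.543%). At least 4-fold higher in ku80 dark replicate 1 was 1 gene of the 42, TrA0341C (0.0301% of the rows). Among the other 33 genes 13 were higher in ku80 dark replicate 1. In ku80 light 33 of the 42 were higher in replicate 2, against 46.2% of the rows, and so were 27 of the other 33, so that direction did not separate the splits. Both directions held in 30 of the 42 genes, against 22.5% of the rows. Across the 75 genes the log2 difference of sor4 dark replicate 1 from replicates 2 to 4 correlated with that of ku80 dark replicate 2 from replicate 1 at Pearson r = 0.364 and Spearman rho = 0.484. With that of ku80 light replicate 1 from replicate 2 it correlated at r = 0.149 and rho = 0.155. Over the 6634 rows the same correlations were r = 0.341 and rho = 0.258 for ku80 dark, and r = 0.251 and rho = 0.179 for ku80 light. Genes are not independent replicates, the sor4 dark values here are those that chose the 75 genes, and each difference contains the depth of its own libraries. Ku80 light replicate 2 also entered the light to dark condition, as said above.

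**Figure D4:**
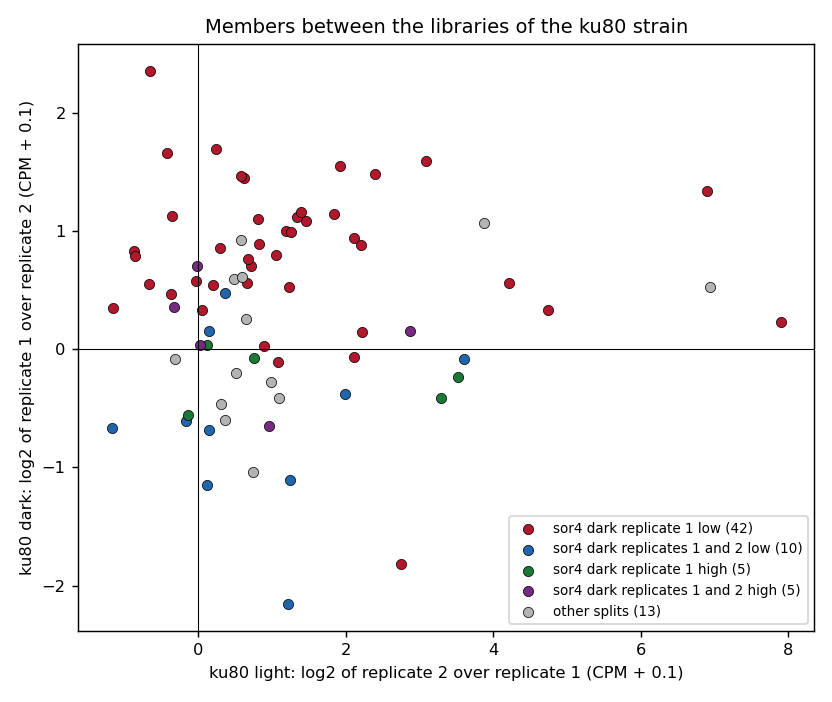
Each point is 1 of the 75 genes, placed by the log2 ratio of ku80 light replicate 2 over 1 (x axis) and of ku80 dark replicate 1 over 2 (y axis), both of CPM + 0.1, and coloured by the split of the sor4 dark libraries. Of the 42 genes low in sor4 dark replicate 1, 39 lie above the horizontal line and 33 to the right of the vertical line.

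The genes furthest apart in ku80 light are given as a description. TrE1142C, TrA1948C, TrG0152C, TrF1047C and TrA2098C met the light to dark condition in ku80 alone, through the value of ku80 light replicate 2. The rule thus helped to choose them for this difference, and nothing is read from its size. TrE1142C had 23.8 CPM in ku80 light replicate 2 and 0 counts in replicate 1, against 28.9 and 24.6 CPM in ku80 dark replicates 1 and 2. TrA1948C, of 282 bases, had 107 CPM in replicate 2 and 0.791 CPM in replicate 1, and only 0.493 to 1.60 CPM in the 4 sor4 light libraries. TrA0808W had 363 CPM in replicate 2 and 2.87 CPM in replicate 1, while the sor4 light libraries had 11.5, 20.2, 8.48 and 8.37 CPM. In all 3 genes 1 ku80 light library stood apart from the other and from the sor4 light libraries.

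The same held for TrG0152C, TrF1047C, TrA2098C and TrB1176W. TrG0152C had 7.90 CPM in ku80 light replicate 2 and 0.198 CPM in replicate 1, beside 0.741 to 1.22 CPM in sor4 light. TrF1047C had 31.1 CPM in replicate 2 and 1.58 CPM in replicate 1, beside 3.55 to 4.70 CPM in sor4 light. In both genes the sor4 light libraries lay close together, between the ku80 light libraries. TrA2098C had 13 CPM in replicate 2 and 0.791 CPM in replicate 1, beside 1.79 to 5.37 CPM in sor4 light. TrB1176W, the gene with the widest sor4 dark ratio, had 243 CPM in replicate 2 and 19.98 CPM in replicate 1, beside 21.8 to 25.7 CPM in sor4 light. The neighbours TrF0785C and TrF0786W had 28.9 and 114 CPM in ku80 light replicate 2 and 2.87 and 9.89 CPM in replicate 1. Ku80 light replicate 2 was the library with the lowest total, 7844524 counts; the part of depth in these values was not tested.

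In light most of these genes were lower than in darkness, within the bounds that the rule set. The sor4 light mean was lower than the sor4 dark mean for 57 of the 75 genes and higher for 18. The median ratio was 0.472. Over the 6634 rows it was lower for 3210 and higher for 3424, with a median ratio of 1.01. The ku80 light mean was lower than the ku80 dark mean for 48 genes and higher for 27, with a median ratio of 0.584. Over the rows it was lower for 3108 and higher for 3526, with a median ratio of 1.03. In 22 genes the sor4 light mean was below the lowest sor4 dark library, in 10 it was above the highest, and in 43 it lay inside their range. Every sor4 light library was lower than every sor4 dark library in 17 genes (26.8% of the rows) and higher in 6 (28.1%). In ku80 every light library was lower in 33 genes (33.2%) and higher in 14 (37.4%). The rule bounded the light to dark ratio and chose the genes on their sor4 dark mean and spread. Nothing is therefore read from these counts, ratios and shares.

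In edgeR's test of light against darkness in ku80, with 2 libraries each, 15 of the 75 genes passed, 6 higher and 9 lower in light, against 27.3% of the 8538 rows tested (11.7% higher and 15.6% lower). The genes higher in light were TrA0339W, TrB0074C, TrB1388W, TrE0251W, TrE0943C and TrF1083W. TrE0251W had 441 and 244 CPM in ku80 light, against 56.2 and 32.5 CPM in ku80 dark, a log2 fold change of 2.89 (edgeR adjusted p = 0.00795). In sor4 it had 271, 247, 237 and 173 CPM in light, all above its 4 dark values, of which the highest was 104 CPM. TrE0943C had 115 and 141 CPM in ku80 light, against 32.2 and 17.7 CPM in ku80 dark, with a log2 fold change of 2.30 (edgeR adjusted p = 0.00803). Its sor4 light values of 124, 158, 119 and 122 CPM stood close to the highest of its sor4 dark values, 123 CPM in replicate 3.

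The 9 genes lower in ku80 light were TrA0674W, TrB0398C, TrB0705C, TrB1400W, TrC0693C, TrC0812C, TrD0093W, TrF1040C and TrG0439C. TrB0705C had 397 and 625 CPM in ku80 light, against 1788 and 1211 CPM in ku80 dark, a log2 fold change of -1.61 (edgeR adjusted p = 0.0209). In sor4 light it had 1032, 779, 1021 and 1666 CPM, inside its sor4 dark range of 652 to 3404 CPM. TrB1400W had 10.9 and 11.1 CPM in ku80 light, against 48.3 and 47.2 CPM in ku80 dark, with a log2 fold change of -2.18 (edgeR adjusted p = 0.00148). In sor4 light it had 9.89, 11.9, 12.9 and 10.8 CPM, close to sor4 dark replicates 3 and 4, which had 11.4 and 16.5 CPM. For TrB1400W the low side of the sor4 dark split thus lay near the level in light of both strains.

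The light level took different places relative to the sor4 dark split. The sor4 light values of TrB1176W, 21.8 to 25.7 CPM, lay between the low pair and the high pair. TrA0038C had 2.72, 2.82, 3.75 and 1.60 CPM in sor4 light, below all its sor4 dark values, of which the lowest was 4.04 CPM. TrA1824C had 76.7, 68.0, 70.7 and 66.2 CPM in sor4 light, below all 4 sor4 dark libraries, and 58.6 and 114 CPM in ku80 light. TrA1948C stood at 0.493 to 1.60 CPM in sor4 light, against 60.3 to 524 CPM in sor4 dark. Others went the opposite way, and TrB1746C, of 417 bases, had 136, 96.4, 152 and 239.7 CPM in sor4 light, against 8.03, 45.9, 39.4 and 30.4 CPM in sor4 dark.

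Between the strains in light, 0 of the 75 genes passed edgeR's quasi-likelihood test of the 6 light libraries at an adjusted p under 0.05. The smallest adjusted p among them was 0.194. The light means entered the light to dark condition, which 18 genes met in ku80 alone and 8 in sor4 alone. Such genes can differ between the strains in light through the rule, so nothing is read from counts that exceed the share of the rows. Over all 8374 rows tested 1 passed (0.0119%). At an unadjusted p under 0.05 there were 28 of the 75 genes, 16 higher and 12 lower in sor4, against 10.5% of the rows. DESeq2 called 10 of the 75, 9 higher and 1 lower, against 1.86% of the rows (1.48% higher), and limma-voom called 0. The fold changes depended on which ku80 light library was kept. With all 6 light libraries the median log2 fold change of the 75 genes was 0.0575. It was -0.0341 without ku80 light replicate 1 and 0.576 without ku80 light replicate 2. Over all rows tested the median was 0.0103 and 0.00357 in these fits. With 1 ku80 library left, the spread comes from the sor4 light libraries alone, so no count of genes passing is given for them.

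**Figure D5:**
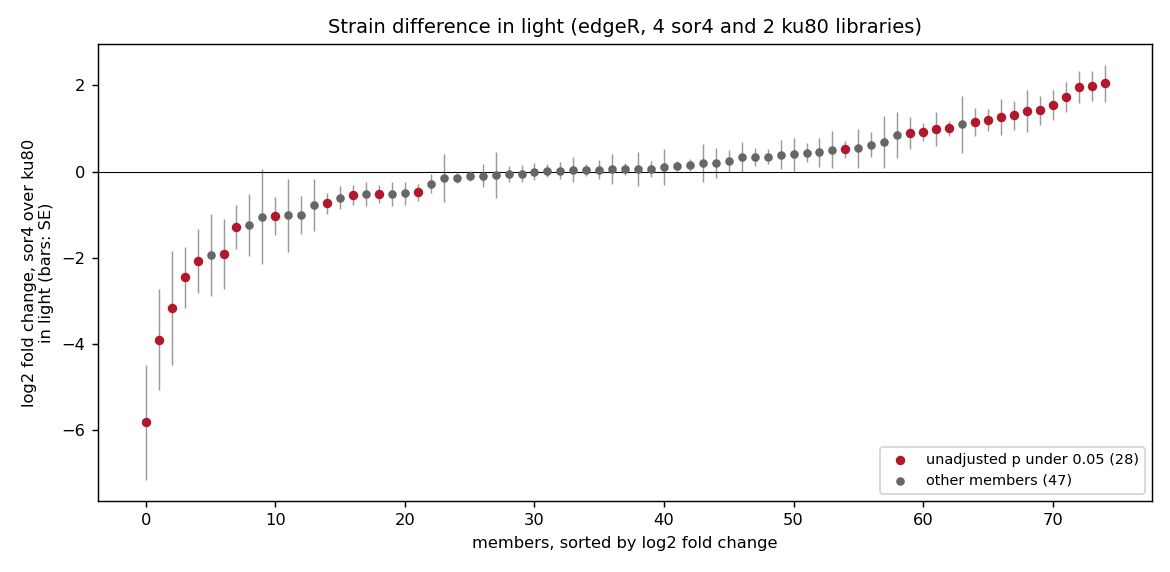
The log2 fold change of sor4 over ku80 in light for each of the 75 genes, sorted. Bars are standard errors derived from edgeR's F statistic. Red points had an unadjusted p under 0.05 (28 genes) and grey points did not (47 genes). The fold changes run from -5.82 for TrA1948C to 2.05 for TrA0224W, and 0 passed at an adjusted p under 0.05.

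All 4 sor4 light libraries were higher than both ku80 light libraries in 14 of the 75 genes, against 9.56% of the rows, and lower in 2, against 11.2%. Of those 14 genes 13 were low in sor4 dark replicate 1 alone, as were 42 of all 75. Under 500 bases were 7 of the 14, against 10 of all 75 genes and 8.28% of the 6634 rows. TrA0341C had 10.4, 7.56, 8.68 and 12.97 CPM in sor4 light, against 3.07 and 1.91 CPM in ku80 light, a log2 fold change of 1.98 (SE 0.34, edgeR adjusted p = 0.194, with a range of 6.25e-05 to 0.833 over the alternatives). TrA0224W had 820.4, 595, 1073 and 1069 CPM in sor4 light, against 116 and 318 CPM in ku80 light, a log2 fold change of 2.05 (SE 0.43, edgeR adjusted p = 0.198, with a range of 0.00205 to 0.999). TrB1722C had 1103, 976, 1294 and 1319 CPM in sor4 light, against 230.0 and 581 CPM in ku80 light, a log2 fold change of 1.54 (SE 0.34, edgeR adjusted p = 0.225, with a range of 0.000298 to 0.999). For each of these genes the groups did not overlap, while the test over all genes was not passed.

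TrA0027W had 1843, 1517, 2203 and 2535 CPM in sor4 light, against 677 and 1111 CPM in ku80 light, a log2 fold change of 1.19 (SE 0.26, edgeR adjusted p = 0.214). TrB0705C, described above, had a log2 fold change of 1.15 in light (SE 0.32, edgeR adjusted p = 0.293). Among the genes lower in sor4, TrA1948C, TrA0808W and TrB1176W rested on ku80 light replicate 2, whose values stand above. The log2 fold change was -5.82 for TrA1948C (SE 1.34, edgeR adjusted p = 0.235), and without that library it was 0.25. For TrA0808W it was -3.90 (SE 1.16, edgeR adjusted p = 0.333), and 2.10 without that library. For TrB1176W it was -2.46 (SE 0.70, edgeR adjusted p = 0.312), and 0.27 without it. The 10 genes that DESeq2 called were TrA0027W, TrA0224W, TrA0341C, TrA0674W, TrA2061C, TrB1722C, TrB1746C, TrC1360C and TrF0708W, all higher in sor4, and TrA1948C, lower in sor4. Of these genes TrA0341C and TrA0674W met the light to dark condition in sor4 alone, and TrA1948C and TrB1746C in ku80 alone. Of the 9 higher ones 6 were under 500 bases, as were 10 of all 75 genes and 8.28% of the 6634 rows.

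At the edges of the rule, the genes just inside the fold bound were TrG0439C, TrE0430W and TrG0402W, with ratios of 4.00, 4.06 and 4.08. Just outside were TrF0576W, TrE0464C and TrC0761C, with ratios of 3.90, 3.90 and 3.89. On level, the lowest genes taken were TrE1052C, TrB1131C and TrF0785C, with sor4 dark means of 10.2, 10.2 and 10.3 CPM. The highest not taken were TrE0075W, TrB0313W and TrD0246C, with means of 9.81, 9.35 and 9.21 CPM and ratios of 4.88, 38.6 and 7.63.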

How the data were processed

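The deposited table holds the authors' whole-number counts per gene, 1 column per library, and a gene length. Reads were aligned with HISAT2 2.2.1, per the submitters' processing notes. With build, annotation, strand setting and counting parameters not given in the sources used here, reads of overlapping and antisense genes cannot be told apart. CPM used column totals. The genes and lists were chosen with earlier results of these data known. Strain effects in light and in darkness, and light against darkness in ku80, were tested on the counts with edgeR 4.0.16 in R 4.3.3 (TMM, default low-count filter, quasi-likelihood F test, Benjamini-Hochberg adjustment over all rows tested), fitting the groups compared only. A fit over all groups would have given each gene a spread that holds the sor4 dark values used to choose it. All 75 genes passed the filter in each fit. The SE given with a fold change is the absolute log2 fold change divided by the square root of the F statistic. The scripts were tested on simulated counts.

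Alternatives were other scalings, DESeq2 1.42.0, limma-voom (limma 3.58.1), other filters and bounds, all 12 libraries in 1 fit, the replicate number as a block, and each library left out in turn. Named genes were the 8 with the widest ratio, the 6 with the highest mean, the 3 with the widest gap in each split of at least 5 genes, runs in table order, genes called in light (0), the 6 furthest apart in ku80 light, and those nearest each bound; other names were chosen after their values were seen. No sequence is shown.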

Additional observations from a re-analysis of the deposited data

Results flagged for a closer look

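Among 66 sets of 4 values in the sor4 groups (totals, the share of counts of the 75 genes, and the CPM of 31 named genes), 5 had a library far from the other 3; chance marks about 1 set in 20. In sor4 light TrE0943C stood at 158 CPM in replicate 2, against 119 to 124 CPM in the other 3. In sor4 darkness, where the genes were chosen for their spread, TrA0027W stood at 239.9 CPM and TrA0038C at 161 CPM in replicate 1, TrB0074C at 224 CPM in replicate 2 and TrA0808W at 28.6 CPM in replicate 3. Over all 75 genes, 2 were marked in sor4 light and 7 in sor4 darkness, against 5.35% and 6.0% of the rows with a dark mean of at least 10 CPM.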

How the results depend on the processing

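The number of genes taken was 75 and stayed between 56 and 100 under other scalings and levels. It was 137 with a ratio of 3 in place of 4, 21 with a ratio of 8 and 157 without the light to dark condition, and from 24 to 85 with 1 library left out; it depended most on sor4 dark replicate 1 (24). Of the 75 genes, the strain test in light called 0, but 10 in DESeq2 (1.86% of rows), and 0 with 1 sor4 light library left out. With 1 ku80 light library left out, the spread comes from sor4 alone, so no count is given for that test. The strain test in darkness called 0 in every alternative run. Light against darkness in ku80 called 15, but 29 in DESeq2 (31.2% of 8538 rows) and 11 to 38 with 1 library left out, with 38 without ku80 light replicate 2 (26.4% of 8733 rows) and 24 without ku80 light replicate 1 (29.3% of 8802 rows); where 1 ku80 library remained, it was assumed to vary like the other group. Over all rows the strain test in light called 1 of 8374, but 156 in DESeq2. In darkness it called 1 of 8635, but 14 in DESeq2 and 3 of 8939 with all 12 libraries fitted. Over all rows light against darkness in ku80 called 2330 of 8538, but 3810 of 8939 with all 12 libraries fitted, and 878 of 8777 and 831 of 8749 rows without ku80 dark replicate 1 or 2. The count of genes at least 4-fold apart in sor4 light was 1 to 3 with 1 library left out. The log2 fold changes of 3 genes in light changed sign without ku80 light replicate 2, ranging over the libraries left out from -4.89 to 2.10 (TrA0808W), -6.82 to 0.25 (TrA1948C) and -3.35 to 0.27 (TrB1176W); the cause was not tested. Of 110 fold changes of single genes in light under the alternatives, 92 kept their direction and side of the threshold, 15 passed it and 3 changed sign. All 372 alternative mean CPM values of named genes moved by less than 1 SD between libraries, which is wide in sor4 darkness. Leaving out 1 of 4 libraries can never move a mean that far, so nothing is read from this for those alternatives. The sor4 dark mean of TrA0038C, for 1, went from 46.7 to 8.71 CPM without sor4 dark replicate 1. With the replicate number as a block, 0 genes were called between the strains in light, 0 in darkness and 19 for light against darkness in ku80. Deviations of same-numbered libraries of the groups compared correlated at -0.198 to 0.0890. With 2 ku80 libraries per group the deviations mirror each other, so these values cannot tell whether the numbers pair the libraries. With 2 ku80 libraries per condition, single libraries limit every comparison with ku80.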

Other observations

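Of the 150 rows next to one of the 75 genes in the table, 4 (2.67%) met the conditions on level and spread, against 1.49% of all 10879 rows. Of those 4 rows, 2 are the pair TrF0785C and TrF0786W. The other 2 had a light to dark ratio outside the bounds. TrA0037W, next to TrA0038C, had 8.03 CPM in sor4 dark replicate 1, and 31.7, 30.3 and 33.9 CPM in replicates 2 to 4, with 20.9 and 9.44 CPM in ku80 dark, so it was low in the library where TrA0038C was high. TrD1254C, next to TrD1255W, had 8.47 CPM in replicate 1, and 39.7, 32.7 and 31.4 CPM in replicates 2 to 4, with 66.8 and 82.2 CPM in ku80 dark, and like TrD1255W it was low in replicate 1. These rows were named after their values were seen.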
